A study of Mus musculus with 96 samples.

Results

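The genes described here are 10 early-response genes of the mouse: the 4 Fos family members Fos, Fosb, Fosl1 and Fosl2, the 3 Jun family members Jun, Junb and Jund, and Atf3, Egr1 and Ier2. They were taken by symbol from the table of counts, and all 10 were found among its 55487 genes. All 10 were among the 14463 genes that passed the filter on low values, a count of 10 or higher in no fewer than 10% of the cells.

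The cells were horizontal basal cells (HBCs), the reserve stem cells at the base of the olfactory epithelium (OE), from wild type mice aged 6 to 8 weeks. The OE was dissected 2 days after an injection of methimazole, a drug that strips the OE down to its basal cells, and the HBCs were grown in culture. After a division both daughter cells, called sisters here, were picked by hand, and the RNA of each was sequenced after capture of its poly(A) tail, full-length copying and amplification, with ERCC synthetic transcripts added to each lysate. The 96 cells formed 48 sister pairs of 1 condition, so that there was no untreated or uninjured group. The labels do not say from which mouse or culture a cell came, and the cells therefore count as 1 sample. No p-value was computed, and every correlation or share describes these cells only.

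Reads on genes numbered 29454150 to 44849003 in a cell (median 36152760), and ERCC transcripts took 1.06% to 5.75% of all counts. The HBC label was checked with 6 markers: the medians of 6 of 6 were above 0 and 5 were counted in every cell, and their summed CPM, the count scaled to the total on genes, ran from 236 to 15769. The medians of all listed markers of globose basal cells, sustentacular cells, neurons, microvillar or gland cells and fibroblasts were 0. Some of them were still counted in a minority of cells, such as Gap43 in 22, Gng13 in 16, Pdgfra in 15 and Lgr5 in 14. Of 4 immune markers 1, Cd68, had a median above 0, and of 2 endothelial markers 1 did, Pecam1, at 0.0495 TPM, a level scaled for gene length and library size. No 2 cells held the same values, the highest Pearson correlation among 4560 combinations being 0.733.

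Fos and Jun proteins pair through a leucine zipper to form AP-1, a transcription factor that binds the TRE motif, and Jun proteins can also pair with each other. Atf3, a bZIP protein of the ATF family, can join Jun partners and often represses. Egr1 is a zinc finger factor and Ier2 a small nuclear protein, and like Fos and Junb they are immediate early genes: growth factors or stress switch them on within minutes, without new protein synthesis, through MAP kinases that act on SRF and its cofactors. Their mRNAs are short-lived, and Dusp, Spry and Zfp36 proteins turn the response off again. In epithelia, AP-1 is known for its part in wounding, keratinocyte growth and differentiation.

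The start regions of Fos, Fosb and Jun are shown because Fos and Fosb move together in the results. Jun, with which they form AP-1, does so less. Some, though not all, of the motifs through which such genes are known to be induced lie close to the start. The sequences are the 150 bases before the RefSeq start in build GRCm38.p6, written 5′ to 3′ on the strand of the gene. Fos lies at chr12:85473740-85473889 on the plus strand, Fosb at chr7:19310046-19310195 on the minus strand and Jun at chr4:95052223-95052372 on the minus strand. Capitals mark the motif matches, which are TGACG, the CRE half-site, TATAAA, the TATA box, and GCGGGGGCG, an EGR site.
Fos: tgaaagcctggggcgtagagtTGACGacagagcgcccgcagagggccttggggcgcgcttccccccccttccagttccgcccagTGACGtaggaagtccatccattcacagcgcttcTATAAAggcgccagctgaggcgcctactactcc
Fosb: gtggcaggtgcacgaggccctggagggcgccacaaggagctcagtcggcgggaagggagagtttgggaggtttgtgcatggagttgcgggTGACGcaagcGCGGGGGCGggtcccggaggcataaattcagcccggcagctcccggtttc
Jun: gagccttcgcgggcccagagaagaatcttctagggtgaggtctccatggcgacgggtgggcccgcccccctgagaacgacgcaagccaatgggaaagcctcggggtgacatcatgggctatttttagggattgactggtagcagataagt

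RefSeq windows from 250 bases before to 50 after the start were used for 7 of the 10 genes, without Fosl1, Egr1 and Ier2. The windows were searched on both strands for the CArG box, which SRF binds, the TRE (TGANTCA), the CRE (TGACGTCA), the EGR site (GCGNGGGCG), the TATA box (TATAAA) and the CRE half-site (TGACG), which is part of the CRE. The Fos window held 2 CRE half-sites, 66 to 62 and 129 to 125 bases before the start, and a TATA box 33 to 28 bases before it. Fosb held an EGR site 50 to 42 bases and a CRE half-site 60 to 56 bases before its start. Fosl2 held an EGR site and Atf3 a CRE half-site. Junb held a CRE half-site and a TATA box. That TATA box begins at the RefSeq start itself, 30 to 25 bases before the first annotated base of Junb. In all, 4 of 7 windows held the CRE half-site, against 20.8% of 32851 promoters, 2 held an EGR site, against 5.55%, and 2 a TATA box, against 13.6%. No window held a CArG box, a TRE or a CRE as spelled here, which 1.63%, 7.81% and 1.79% of all promoters held. Variants of these letters, such as TGACATCA in the printed Jun stretch, were not sought and are not counted as matches. Bases farther upstream, and the genes without a window, were not searched, so their motifs remain unknown here. The RefSeq start is the first annotated base of the gene for Fos and Jun, lies 6 bases after it for Fosb and 30 bases before it for Junb. It lies farther before that base for Jund, and farther after it, inside the annotated gene, for Fosl2 and, farthest of all, Atf3. A match is a description of these letters and not of binding.

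In levels per length, given as TPM so that genes can be compared, Junb, Fos and Ier2 led the 10 genes. Junb had a median of 123 TPM over the 96 cells (lowest 0.193, highest 802). Fos followed at 110 TPM (0.508 to 913) and Ier2 at 98.1 TPM (0.372 to 412). These 3 genes were thus abundant in most cells and still nearly missing from a few. Jun had a median of 61.1 TPM (0.101 to 401), Fosl1 51.95 TPM (0 to 395) and Egr1 16.7 TPM (0 to 308). Fosl2 had a median of 10.5 TPM (0.0138 to 60.1), Fosb 8.11 TPM (0 to 73.4) and Jund 5.47 TPM (0 to 31.9). Atf3 came last, at 0.751 TPM (0 to 155), although its highest cells exceeded the highest cells of Fosb and Jund. For each of the 9 neighbours in this order the interquartile ranges over cells overlapped, so no gene differed from the next beyond the spread of the cells. The genes passing the filter had a median of 7.12 TPM (quartiles 0.131 and 31.8), and 8 of the 10 genes had a higher median than that.

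**Figure D1:**
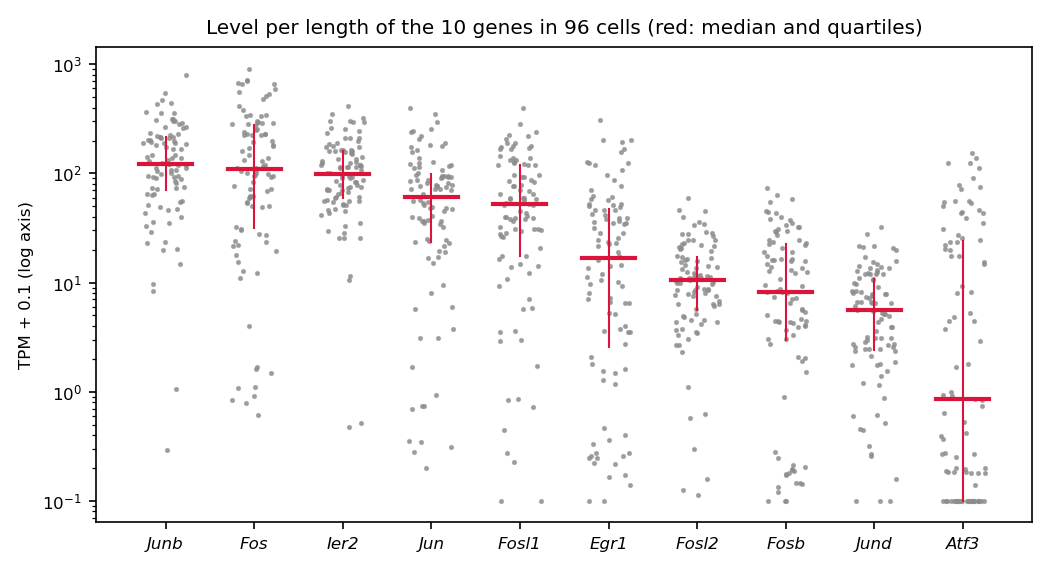
TPM plus 0.1 on a log axis for each of the 10 genes in 96 cells (grey points), ordered by median, with the median (red bar) and quartiles (red line). Junb, Fos and Ier2 sit near 100 TPM, Fosb, Egr1 and Jun trail a separate group of low cells, and Atf3 is split between cells at 0 and cells up to 155 TPM.

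In reads, Fos had between 21 and 48294 counts per cell with a median of 4736, and it was counted in all 96 cells. Jun (9 to 29154, median 4314), Junb (9 to 29092, median 4999), Ier2 (13 to 15769, median 3412) and Fosl2 (3 to 7913, median 1396) were also counted in every cell. These 5 of 10 genes compare with 8.35% of all 55487 genes in the table. That background includes the many genes that failed the filter on low values, which all 10 genes passed. The shares are therefore not like for like, and the share among genes passing the filter was not computed. Of the others, Egr1 (median 1596, highest 31206) and Fosl1 (median 1434, highest 13598) were at 0 in 2 cells each. Fosb (median 618, highest 5938) and Jund (median 199, highest 1040) were at 0 in 3 cells each. Atf3, with a median of 33 and a highest count of 6345, was at 0 in 26 cells and reached 10 counts in 55.

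The genes also differed in how far a few cells carried the signal. The 10 highest cells held 55.96% of the summed TPM of Atf3, 47.4% of that of Egr1 and 36.7% of that of Fos. They held least of Ier2, 26.6%, and of Junb, 28.8%. The highest Fos count was that of daughter 2 of pair 4, at 48294 beside 29559 in its sister, and Egr1 stood at 22757 and 450 counts in the same 2 cells. The highest Egr1 count, 31206, was that of daughter 1 of pair 36.

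The position of each gene is that of build GRCm38. Fos lies on chromosome 12 (85473890 to 85477273, plus strand, 4 exons) and Fosb on chromosome 7 (19302696 to 19310051, minus strand, 5 exons). Fosl1 lies on chromosome 19 (5447547 to 5455946, plus strand, 4 exons) and Fosl2 on chromosome 5 (32135801 to 32157842, plus strand, 4 exons). Jun lies on chromosome 4 (95049034 to 95052222, minus strand) and Jund on chromosome 8 (70698949 to 70700616, plus strand), and like Ier2 (chromosome 8, 84661331 to 84662854, minus strand) they have a single exon. Junb, with 2 exons, lies near Ier2 on chromosome 8 (84976910 to 84978718, minus strand). Atf3 lies on chromosome 1 (191170296 to 191218039, minus strand, 5 exons) and Egr1 on chromosome 18 (34859823 to 34864984, plus strand, 3 exons). Fosl1 overlaps Ccdc85b on the opposite strand, which had a median of 1865 counts, and no source used here states that the counting used strand, so that reads of the shared stretch cannot be told apart. The partners that overlap Jun, Jund and Atf3 had medians of 0 counts.

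Between sisters, all 10 genes differed in most divisions. Counts were scaled by size factors from the ERCC transcripts, 1 was added, and the higher sister was divided by the lower, with the asymmetry cutoff of 1.5 used in the study. The number of pairs at the cutoff ran from 33 of 48 for Ier2 to 41 of 48 for Fosb, and all 10 genes reached it in at least 50% of pairs. So did 79.5% of the 14463 genes, and at a ratio of 2, which all 10 genes again reached in at least 50% of pairs, so did 61% of them. With a background this high, 10 of 10 genes at the cutoff does not set them apart.

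Of the Fos family, Fos had a median sister ratio of 2.76 (quartiles 1.45 and 12.6), with 34 of 48 pairs at 1.5 and 15 pairs at 10-fold or more. In pair 1 the sisters had 49 and 5400 Fos counts, in pair 33 3282 and 21, and in pair 46 33 and 2263. Sisters with almost no Fos mRNA thus stood beside sisters with abundant Fos mRNA. Fosb, a close relative of Fos that is often induced with it, had 41 pairs at 1.5, 16 at 10-fold and a median ratio of 3.55. Its widest pairs were pair 39 with 2396 and 0 counts, pair 4 with 3 and 5938, and pair 28 with 5 and 2129. Fosl1, also called Fra-1, had 37 pairs at 1.5, 19 at 10-fold and a median ratio of 4.67, and stood at 6380 and 0 counts in pair 20 and at 3637 and 0 in pair 4. Fosl2, or Fra-2, had 34 pairs at 1.5 and a median ratio of 3.12 but only 7 pairs at 10-fold, led by pair 4 with 5001 and 3 counts. More pairs thus reached 10-fold in Fos, Fosb and Fosl1 than in Fosl2, although the largest Fosl2 ratio, 1614, exceeded the largest of Fos, 149.

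Of the Jun family, Jun had a median ratio of 2.88 with 37 pairs at 1.5 and 13 at 10-fold. Its sisters stood at 9 and 4059 counts in pair 1, 3657 and 19 in pair 25, and 45 and 12523 in pair 12. Junb, which can restrain Jun, had 38 pairs at 1.5 but a median ratio of 2.01, the lowest of the 10, and 3 pairs at 10-fold. Those included pair 48 with 12793 and 9 counts and pair 8 with 38 and 10261. Jund, known as the member expressed in resting cells, had 38 pairs at 1.5, 9 at 10-fold and a median ratio of 2.77, and was at 0 in a sister of pair 8 beside 279 counts and of pair 46 beside 126. Most Junb pairs were therefore modestly unequal, with 3 exceptions, while Jun was at 10-fold or more in 13 of 48 pairs.

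Atf3 differed most, with a median ratio of 32.4, 39 pairs at 1.5 and 27 at 10-fold, and in 5 pairs both sisters were at 0. It stood at 5576 and 0 counts in pair 21 and at 4692 and 0 in pair 24. Egr1 had a median ratio of 5.84, 39 pairs at 1.5 and 18 at 10-fold, with 954 and 0 counts in pair 8 and 14 and 4825 in pair 1. Ier2 had a median ratio of 2.17, 33 pairs at 1.5 and 3 at 10-fold, led by pair 8 with 13 and 2100 counts. Over all 14463 genes the median of the ratios was 2.39 (quartiles 1.58 and 4.97), and 2 of the 10 genes, Atf3 and Egr1, lay above the upper quartile.

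**Figure D2:**
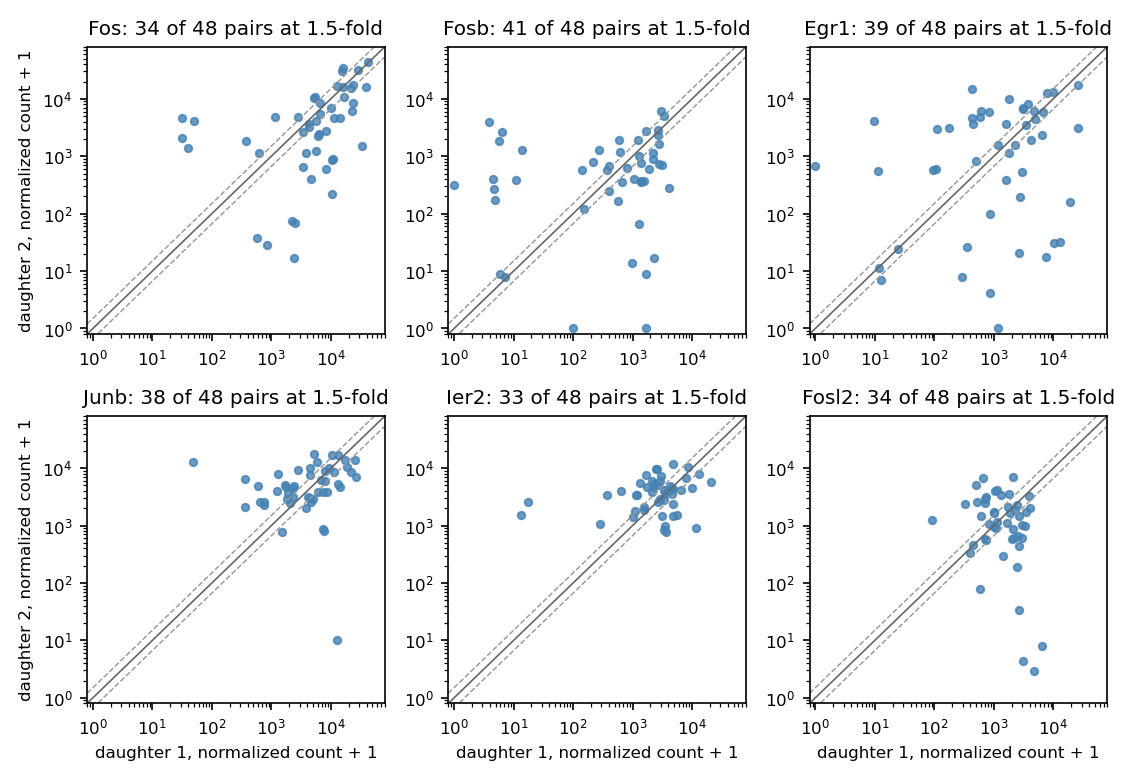
ERCC-scaled count plus 1 of daughter 1 against daughter 2 in 48 pairs for 6 genes, on log axes, with the line of equality (solid) and 1.5-fold differences (dashed). Fos, Fosb and Egr1 spread along both axes, with 34, 41 and 39 pairs outside the dashed lines, whereas Junb and Ier2, with 38 and 33, have few pairs far from the line.

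Counts of 1000 or more in 1 sister and under 10 in the other occurred in 11 pairs for Atf3, 6 for Fosb, 4 for Fosl1 and 3 for Fosl2. These 4 of 10 genes had at least 3 such pairs, as did 36.4% of the 14463 genes. Jun and Junb had 1 such pair each, and Fos, Jund, Egr1 and Ier2 had none. The number of genes with such pairs was thus near the background.

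The ERCC transcripts, which every lysate received alike, give the technical spread at a given level. For each gene the 3 ERCC transcripts of nearest median TPM were taken, some of which also set the size factors. Those near Fos and Junb had 10 to 29 pairs at 1.5, median ratios of 1.24 to 1.63 and no pair at 10-fold, against 34 pairs, 2.76 and 15 for Fos and 38 pairs, 2.01 and 3 for Junb. The sister ratios of Fos and Junb were thus wider than those of synthetic RNA at the same level. Those near Ier2 had 10 to 34 pairs at 1.5 and ratios of 1.24 to 1.92, against 33 pairs and 2.17. Those near Jun had 34 to 37 pairs and 1.92 to 2.63, against 37 and 2.88. At 10-fold, those near Jun had 4 to 12 pairs, against 13 for Jun, and 0 to 4 when matched on median count. Fosl1 at 4.67, Egr1 at 5.84 and Atf3 at 32.4 fell within the ratios of their nearest ERCC transcripts, which were 2.34 to 5.35, 3.65 to 41.7 and 7.28 to 86.1. Fosb at 3.55, Fosl2 at 3.12 and Jund at 2.77 fell below those of theirs, which began at 4.97. With ERCC transcripts matched on median count instead, those near Egr1, Fosl1 and Fosl2 had ratios of 1.24 to 1.92, below the 5.84, 4.67 and 3.12 of these genes. For Egr1, Fosl1 and Fosl2 the answer therefore turned on the matching. For Fosb, Jund and Atf3 the median ratio was not detectably beyond the technical one under either matching. Matched on count, however, Fosb had 41 pairs at 1.5 against 34 to 37 for its ERCC transcripts.

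**Figure D3:**
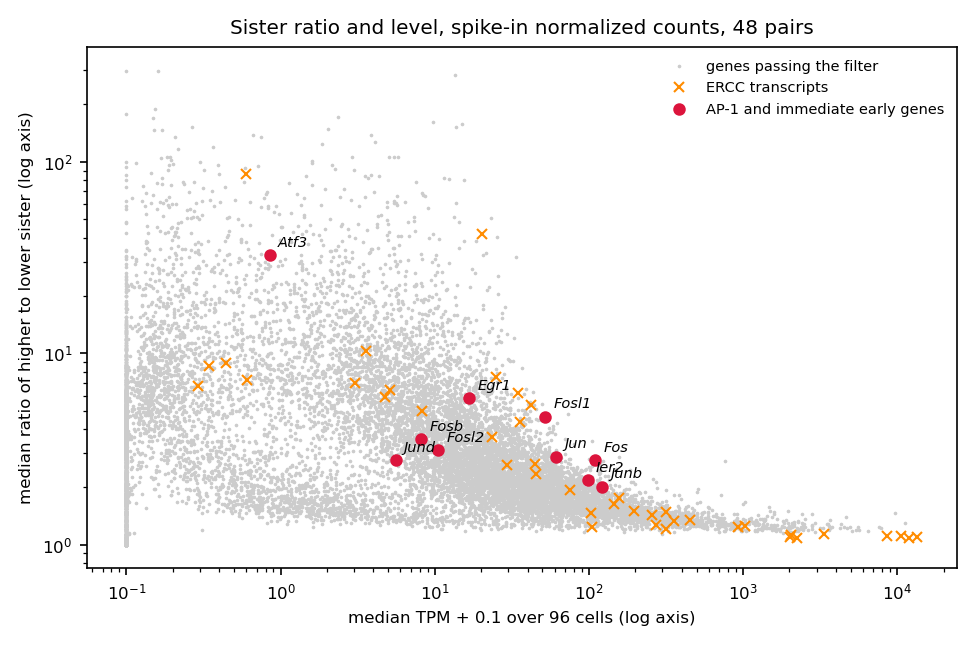
Median over 48 pairs of the ratio of the higher to the lower sister against median TPM plus 0.1, both on log axes, for the genes passing the filter (grey), ERCC transcripts (orange crosses) and the 10 genes (red). Fos at 2.76, Junb at 2.01 and Ier2 at 2.17 lie above the crosses of like TPM, and Fosb, Fosl2 and Jund below them.

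The intraclass correlation, the share of a gene's variance over cells that sisters hold in common, was computed on log2(CPM + 1). It was 0.35 for Fos, 0.21 for Egr1 and 0.20 for Jund, and these 3 of 10 genes reached 0.2, as did 32.8% of the 14463 genes. Jun had 0.17, Ier2 0.15, Fosb 0.12, Fosl1 0.096 and Junb 0.079, around the median of all genes, 0.11 (quartiles -0.010 and 0.25). Fos thus had a higher value than Fosb or Junb, and with ranks over cells the 3 had 0.52, 0.18 and 0.30. No interval was computed for these values, and the differences between genes were not tested. The nearest ERCC transcripts had wider ratios for Fosb than for Fos, and whether technical spread entered this order was not tested. Atf3 had -0.073 and Fosl2 -0.32, and 0.104% of genes had a lower value than Fosl2. Sisters were less alike in Fosl2 than cells of different divisions, and this value ranged from -0.58 to -0.27 over the other settings tried. The median over the 10 genes was 0.14.

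The genes did not vary as 1 block. On log2(CPM + 1) over 96 cells, Fos had a Spearman correlation of 0.54 with Egr1 and 0.53 with Fosb, and Egr1 one of 0.51 with Ier2. These 3 of 45 combinations, 6.67%, reached 0.5, against 0.0301% of all combinations of 2 genes among the 10375 that passed a stricter filter, a count of 10 or higher in no fewer than 50% of the cells. Fosb and Egr1 followed at 0.496 and Junb and Egr1 at 0.43. Egr1 thus stood in 4 of the 5 closest relations. With ERCC scaling, which leaves the RNA content of a cell in the values, Fosb and Egr1 also passed, so that 4 of 45 did against 0.586% of all combinations. The median over the 45 combinations was 0.16, against 0.007 over all genes (quartiles -0.069 and 0.084, 95th percentile 0.198). Negative values were found in 7 of 45, the lowest being -0.31 for Atf3 and Ier2 and -0.19 for Fosl2 and Ier2. With values centred within the deposited sets of 8 cells, the values were 0.61 for Fos and Egr1, 0.56 for Fos and Fosb, 0.56 for Fosb and Egr1 and 0.46 for Egr1 and Ier2. Sisters share a mother, so the 96 points are not independent.

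Within divisions, where mother and culture are shared, Fos, Fosb and Egr1 again stood together. The sisters were picked individually, and the time between the picking of 1 sister and the other is not stated. The correlation of the sister differences was 0.57 for Fosb and Egr1 and 0.52 for Fos and Egr1, and these 2 of 45 combinations reached 0.5 against 0.04% of all combinations. Junb and Ier2 followed at 0.48 and Fos and Fosb at 0.40. Fos and Junb, by contrast, stood at -0.13 and Fos and Ier2 at -0.12. Egr1 had 0.23 with Junb and 0.30 with Ier2, beside a 95th percentile of 0.251 over all combinations. On ERCC-scaled counts plus 1 these values were 0.14 and 0.10, and on ERCC-scaled counts brought to the CPM scale before 1 was added they were 0.21 and 0.26. Fosl2 and Ier2 had -0.37 and Fosl2 and Fosb -0.29, whereas Fosl2 and Atf3 had 0.36 and Fosl2 and Fosl1 0.25. The median over the 45 was 0.075, against 0.004 for all combinations, and 18 of 45 were below 0.

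**Figure D4:**
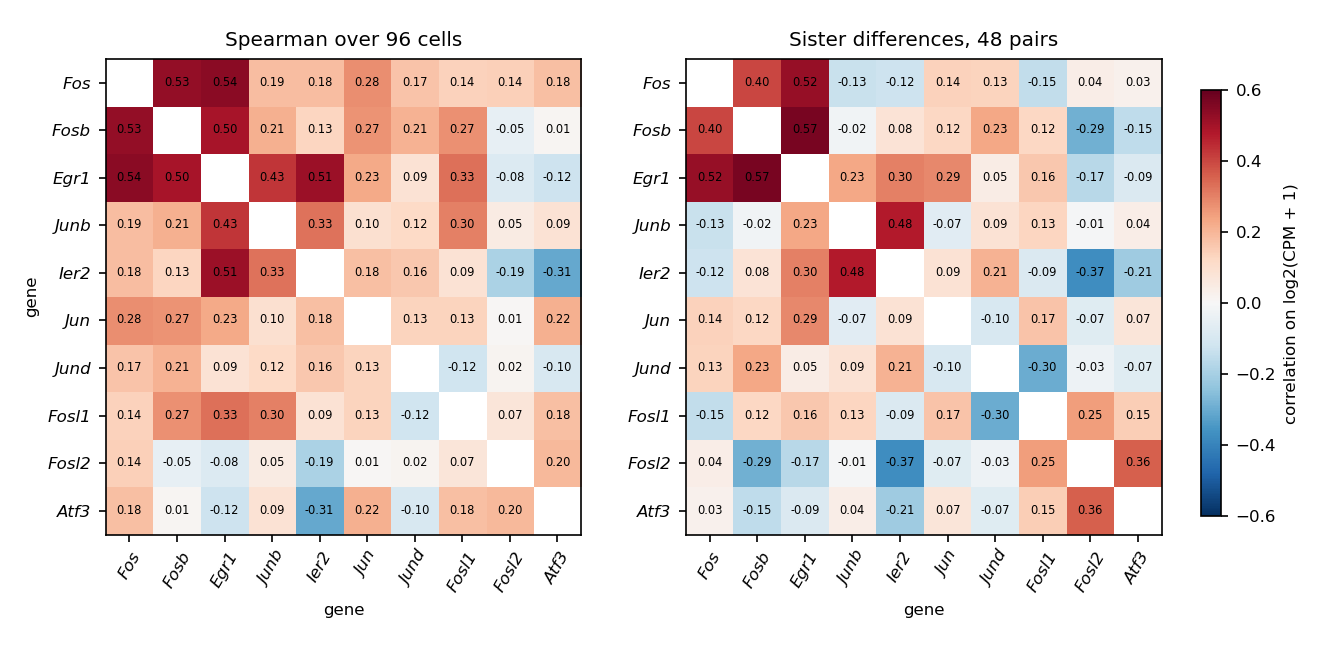
Correlations between the 10 genes on log2(CPM + 1), as Spearman over 96 cells (left) and as correlation of the differences between sisters in 48 pairs (right), red above and blue below 0. The block of Fos, Fosb and Egr1 is red in both panels, Junb and Ier2 pair at 0.48 on the right, and Fosl2 is blue with Ier2 and Fosb there.

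Counted by division, Fosb and Egr1 both differed by 1.5 or more in 33 pairs and were higher in the same sister in 26, or 78.8% (exact 95% interval 61.1 to 91.02). Fos and Egr1 went to the same sister in 21 of 27 pairs, or 77.8% (57.7 to 91.4), and Fos and Fosb in 21 of 28, or 75% (55.1 to 89.3). Junb and Ier2 did so in 19 of 25, or 76% (54.9 to 90.6). The intervals cover counting error only, and all combinations of genes passing the stricter filter went to the same sister in 52.6% of cases. The low end was Fosb and Fosl2, the same in 10 of 29 pairs, or 34.5% (17.9 to 54.3), and Atf3 and Egr1, in 12 of 31, or 38.7% (21.9 to 57.8). Over the 10 genes together the share was 57.2%, and 9 of 45 combinations reached 70%. How many of all gene combinations reach 70% was not computed, so this count has no background and does not set the 10 genes apart. Besides the 4 above these were Egr1 and Ier2 (74.1%), Fosb and Jund (72.7%), Jun and Egr1 (71.4%), Jun and Ier2 (70.8%) and Junb and Egr1 (70%). In 22 pairs Fos, Fosb and Egr1 all differed by 1.5 or more, and in 15 of them all 3 were higher in the same sister, a trio chosen after its values were seen. For Fosl1, Fosl2 and Atf3 this held in 10 of 24 pairs.

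Single divisions show both patterns. In pair 1, daughter 2 had more Fos (5400 against 49 counts), Jun (4059 against 9), Egr1 (4825 against 14), Fosb (365 against 0), Junb (3022 against 1059) and Ier2 (6447 against 2186). Daughter 1 of the same division had more Fosl1 (4346 against 936), Fosl2 (939 against 90) and Atf3 (2736 against 0). In pair 4, daughter 2 again had more Egr1 (22757 against 450) and Fosb (5938 against 3), and daughter 1 had more Fosl1 (3637 against 0), Fosl2 (5001 against 3) and Atf3 (1908 against 42). Fos differed by less than 1.5 in pair 4, with 28506 and 32010 ERCC-scaled counts. In both of these divisions Fosl1, Fosl2 and Atf3 were thus higher in daughter 1 and Fosb and Egr1 in daughter 2. Over all pairs this opposition did not hold for Fosl1, whose sister differences had correlations of 0.12 with Fosb and 0.16 with Egr1. Those of Fosl2 were -0.29 and -0.17, and those of Atf3 -0.15 and -0.089. In pair 8, daughter 1 had more Fos (8387 against 178), Fosb (1813 against 13), Egr1 (954 against 0) and Fosl1 (5459 against 230). Daughter 2 of pair 8 had more Junb (10261 against 38) and Ier2 (2100 against 13). Without pair 4 the correlation of sister differences was 0.53 for Fosb and Egr1 and 0.53 for Fos and Egr1, and without pair 46 it was 0.57 and 0.58.

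**Figure D5:**
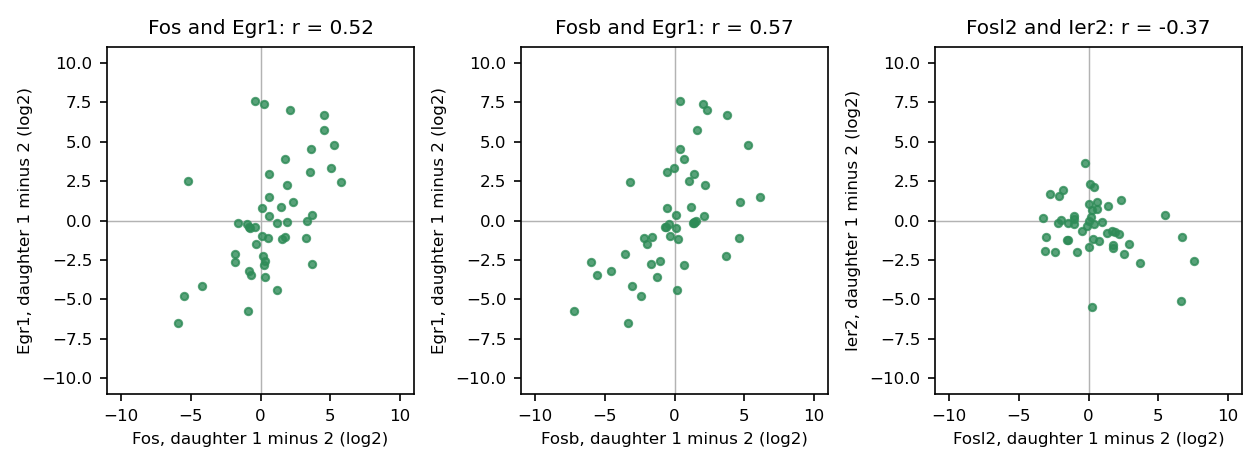
Difference between daughter 1 and daughter 2 in log2(CPM + 1) for 48 divisions, each a point, for Fos against Egr1, Fosb against Egr1 and Fosl2 against Ier2. The first 2 panels rise together, with correlations of 0.52 and 0.57, and the third falls, with -0.37.

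For each of the 10 genes, the other genes with the most similar rank over 96 cells were taken from those passing the stricter filter, 5 for each. Fosl1 stood out, with Phlda1 (Spearman 0.51), Hbegf (0.50), Nrg1 (0.47), Rap2b (0.46) and Plaur (0.46). Hbegf and Nrg1 encode ligands of the EGF receptor family, and Plaur the urokinase receptor. In the sister differences Fosl1 correlated with Phlda1 at 0.60, Rap2b at 0.52, Plaur at 0.48, Hbegf at 0.46 and Nrg1 at 0.18. Fosl1 had 2 genes outside the 10 at 0.5 over cells on this scale, and the other 9 genes had none. ERCC scaling, which raised correlations in general, was read only for the 5 genes listed for each. Among those, Fosl1 with Nrg1 (0.56), Rap2b (0.56) and Plaur (0.53) also reached 0.5. So did Fos with Acadvl (0.55) and Junb with Plaur (0.53) and Trpv4 (0.50). Junb shared 3 of these genes, Plaur (0.44), Hbegf (0.43) and Phlda1 (0.42), followed by Spry4 (0.40) and Trpv4 (0.39). Egr1 was most like Arc (0.46), itself an immediate early gene, then Sdhaf2 (0.40), Spry4 (0.38), Ces1d (0.37) and Eef1akmt1 (0.36).

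Fos was most like Acadvl, an enzyme of fatty acid oxidation (0.48), then Gstm3 (0.38), Neat1 (0.37), Poll (0.37) and Lclat1 (0.37). Among the genes most like Fosb were Naxe (0.37), Dusp6, an ERK phosphatase (0.37), Cux1 (0.36) and Plcb4 (0.35). Jun was most like Clu (0.40), Tysnd1 (0.39), Zfp36 (0.36), Atg14 (0.36) and Cyp4f17 (0.35). For Fosb and Jun, a feedback gene thus stood among the 5 most alike. Fosl2 was most like Srr (0.36), Rap2b (0.36), Gm6900 (0.33), Gm14328 (0.32) and Rac3 (0.31). Jund was most like Sall1 (0.42), Rps6ka1 (0.38), Timeless (0.37), Shroom4 (0.37) and Chek1 (0.37). Atf3 was most like Arid5a (0.41), Bmp2k (0.40), Dglucy (0.40), Gm9817 (0.40) and Krt17 (0.38), and Ier2 most like Ssbp4 (0.38), Nt5dc2 (0.37), Cry1 (0.35), Fbxo9 (0.35) and Kdf1 (0.35). As the highest of 10365 values each, these are a ranking and no more.

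The rest of the pathway was read against the mean rank of the 10 genes in each cell. Of 10365 other genes passing the stricter filter, 0.502% had a Spearman correlation of 0.3 or more with this rank, and the median was -0.004 (quartiles -0.085 and 0.075). Of 21 receptors and kinases, all passed the filter and none reached 0.3, with a median of 0.0014. The highest were Egfr at 0.24, Map2k4 at 0.17 and Fgfr2 at 0.17, and among the lowest were Erbb3 at -0.092 and Nras at -0.088. Of 7 EGF family ligands 4 passed, all above 0, and Hbegf reached 0.44, followed by Tgfa at 0.21 and Ereg at 0.20. Epgn (0.076), Btc (0.069) and Egf (0.027) were counted in 4, 47 and 14 cells. Of 8 SRF cofactor genes and related factors none reached 0.3, Srf itself being highest at 0.21, before Elk4 (0.0033) and Elk3 (0.0015), and Elk1 (-0.17), Creb1 (-0.13) and Mrtfb (-0.043) lowest. Of these upstream lists, Hbegf alone thus passed 0.3.

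Of 24 other immediate early genes 20 passed, 16 of them above 0 and 3 at 0.3 or more. These were Ier3 (0.41), Ptgs2, the inducible prostaglandin synthase (0.38), and Arc (0.34), and the lowest were Ier5 (-0.056), Nr4a2 (-0.041) and Ier5l (-0.041). Of 18 feedback genes 14 passed and all 14 were above 0, with a median of 0.20. Spry4, an inhibitor of receptor signalling, had 0.44, Zfp36, which destabilises AU-rich mRNAs, 0.32, and Nfkbia 0.31, and Dusp6 was the other of the 4 at 0.3. The lowest of the list were Spred2 (0.059), Socs3 (0.093, counted in 47 cells) and Dusp2 (-0.097, counted in 16). All feedback genes that passed the stricter filter thus lay above 0, as did the EGF family ligands.

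Of 18 other bZIP genes 13 passed, with a median of 0.033 and none at 0.3. Mafk (0.22), Cebpd (0.18) and Batf (0.16, counted in 1 cell) were highest and Atf4 (-0.17), Mafg (-0.11) and Batf2 (-0.11, in 6 cells) lowest. Of 25 known AP-1 targets 14 passed, with a median of 0.085, and Plaur alone reached 0.3, at 0.37, ahead of Cxcl1 (0.2999). Cd44 (-0.21), Hmox1 (-0.094) and Mmp9 (-0.080, counted in 1 cell) were lowest. The 3 lists of other early genes, feedback genes and targets thus had medians of 0.16, 0.20 and 0.085, and the difference between them was not tested.

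Heat shock genes, which encode chaperones that cell stress induces, had a median of -0.034 over 13 genes. Hspa1b (0.18), Hspa1a (0.17), which share nearly all their sequence and so their reads, and Bag3 (0.11) were highest, and Hsp90aa1 (-0.29), Hspe1 (-0.23) and Hspd1 (-0.21) lowest. The summed heat shock level had correlations of -0.12 to 0.10 with the single genes. Cell cycle genes had a median of -0.073 over 14, from Ccnb2 (-0.38), Ccnb1 (-0.28) and Birc5 (-0.19) to Aurkb (0.011), Mcm5 (0.078) and Mcm6 (0.091). The median intraclass correlation of the cell cycle genes was 0.546 and of the heat shock genes 0.370, against 0.138 for the 10 genes, and those lists thus had the higher medians.

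Cell features followed the single genes weakly. RNA content, the gene counts over the ERCC counts, had Spearman correlations of -0.11 to 0.31 with the 10 genes, the highest being Atf3. The number of genes counted gave -0.096 to 0.17, the mitochondrial share -0.26 to 0.067 and summed cell cycle genes -0.23 to 0.10. Of these features, RNA content with Atf3 was thus the strongest. Krt6a, a keratin of injured and activated epithelia, had 0.42 with Fosl1 and 0.36 in the sister differences, and 0.39 with Fosl2 in the sister differences against 0.088 over cells. Fosl1 and summed cell cycle genes had -0.37 in the sister differences and Jun -0.35. Krt14 had 0.31 with Atf3, 0.29 with Fosl1 and 0.27 with Jun over cells, and 0.071, 0.27 and -0.016 in the sister differences. Trp63, the regulator that keeps HBCs quiescent, had -0.17 to 0.20 and was above 0 for 9 of 10 genes. Krt5 had -0.0043 to 0.27 and was likewise above 0 for 9 of 10. H3f3b, a gene for histone H3.3, was below 0 for 9 of 10 genes, from -0.30 for Junb to 0.068 for Ier2. It had -0.39 with Jun in the sister differences. How often other genes give signs this one-sided was not counted. H3f3a, the other H3.3 gene, ran from -0.14 to 0.17.

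The cells were deposited in 12 numbered sets of 8 cells, or 4 divisions, and whether a set was handled together is not stated. Sets held a median of 17.0% of the variance of the 10 genes, against 13.5% (quartiles 9.98% and 17.8%) of that of all genes. Jund had 20.4%, Fos 19.5%, Ier2 18.7%, Egr1 17.6% and Fosb 17.2%, and Fosl1 had 7.42% and Junb 8.46%. The set median of ERCC-scaled Fos counts ran from 1699 in set 2 to 16050 in set 7, that of Egr1 from 385 in set 2 to 5263 in set 3 and that of Fosb from 10.4 in set 1 to 2138 in set 7. Sister comparisons are made within a set and do not contain these differences.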

How the data were processed

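The authors made the data by G&T-seq of single daughter cells. Per the processing notes of the submitters, Trimmomatic 0.39, STAR 2.7.11a and StringTie 2.2.1 were used with GRCm38. The deposited count table holds whole read counts per gene and cell, without normalization or molecular identifiers, and the deposited TPM tables of the authors give levels per length, scaled with ERCC included.

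From these files, each cell's size factor was computed as a median of ratios, taken over those 22 of 92 ERCC transcripts that every cell held, and sister ratios were taken with a pseudocount of 1. CPM used counts on genes only. Correlations, intraclass correlations and variance between sets used log2(CPM + 1). Sister differences were correlated without centring, so that the order of daughters has no effect. The filters were 10 counts in 10% of cells and, for combinations of genes, 10 counts in 50%. Gene positions and overlaps came from the GENCODE annotation of GRCm38 and promoters from RefSeq. The statistics were tested on simulated counts with known sharing, known ratios and Poisson counting error. Noise from amplification was not simulated, so this check does not cover the technical spread of these libraries. Python 3.11.15, numpy 2.4.6, pandas 2.3.3, scipy 1.17.1 and matplotlib 3.10.9 were used.

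The 10 genes, the pathway lists and the markers were chosen with earlier results of these data known. Genes outside the 10 were named by rule: the 3 highest and 3 lowest of each list by correlation with the mean rank of the 10 genes, the 5 most alike each gene, and the 3 pairs with the largest ratio, of which the widest are printed. Some genes that the rule selects are not reported here. Exact Clopper-Pearson 95% intervals cover counting error only. Other scalings, filters, pseudocounts and cutoffs, ranks, centring within sets, and leaving out each set were tried. Leaving out pair 4 or pair 46 was added after values were seen, as were the TATA box and the CRE half-site. The comparison of protein sequences was not run, since no protein table was used here.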

Additional observations from a re-analysis of the deposited data

How the results depend on the processing

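Of the values recomputed under the alternatives, 384 stayed and 14 moved, where a value moved if it left the exact 95% interval of a share of pairs, differed 1.5 times in a count, or differed by more than 1 SD over the 10 genes or their combinations. In 7 the sign differed: the intraclass correlations of Fosb, Junb, Jund and Ier2 and the median over the 10 genes fell below 0 with values centred within sets, that of Atf3 was 0.0035 with ranks, and the correlation of Fosl2 with Ier2 was 0.024 over pair means. Some of the 384 could not move. All 10 genes pass both filters, so other filters left their values unchanged, and Spearman correlations do not depend on the pseudocount. Leaving out cells cannot lower the number of genes counted in every cell. The tally is therefore no measure of how robust the values are. All 10 genes reached the sister cutoff in at least 50% of pairs under every scaling, pseudocount, cutoff and set left out. The number of genes counted in every cell fell from 5 to 2 with a minimum of 10 counts and to 0 with a TPM of at least 1. The median intraclass correlation ranged from -0.0068 to 0.18, the median correlation between the 10 genes over cells from 0.10 to 0.23 and of sister differences from 0.044 to 0.087, and the median share of variance between sets from 15.9% to 19.3%. Centring within sets, which lowers intraclass correlations by its construction, gave the lowest values, with -0.060 for Fosb, -0.0065 for Junb, -0.0070 for Jund, -0.046 for Ier2, -0.29 for Atf3 and -0.58 for Fosl2. With ranks over cells the intraclass correlation of Junb was 0.30. The share of Junb pairs at the cutoff fell from 79.2% to 50% at a cutoff of 2. Over alternatives, Fos and Egr1 kept 0.53 to 0.61 over cells, Fos and Fosb 0.49 to 0.57, Egr1 and Ier2 0.40 to 0.53, and Fosb and Egr1 0.36 to 0.56. For Atf3, Jund and Fosb, median sister ratios did not exceed those of ERCC transcripts of like level, so that a difference beyond the technical spread was not detectable in the median ratio.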
